A study of Homo sapiens with 4 samples.

Results

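The genes described here encode the human topoisomerases TOP1, TOP1MT, TOP2A, TOP2B, TOP3A and TOP3B, the phosphodiesterases TDP1 and TDP2, and the TOP3A partners RMI1 and RMI2. They were chosen by symbol, and all 10 were found once among the 60617 gene entries of the table. All 10 passed the filter on low counts, which kept 17374 genes. The cells were SKNMC, an established human Ewing sarcoma line whose tumour type carries a fusion of EWSR1 with an ETS gene. They were kept for 24 h in 1 µM CBL0137, a curaxin, which is a DNA-binding small molecule that leads to trapping of FACT, a histone chaperone, in chromatin (n = 2), or in the DMSO vehicle (n = 2). No other agent or genetic change is named in the labels, so CBL0137 is the only labelled difference between the groups, and the results concern a single line.

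Topoisomerases relax and untangle DNA by cutting it and rejoining it, and stay bound to the cut end through a tyrosine while the strand is open. TOP1 and TOP1MT relax supercoils ahead of polymerases in the nucleus and in mitochondria, TOP2A and TOP2B pass a whole duplex through a double-strand cut, and the TOP3 enzymes unlink single strands. Drugs or DNA lesions that stop the rejoining leave the enzyme covalently attached. TDP1 and TDP2 then cleave the bond between the tyrosine and the DNA, TDP1 mainly at TOP1 adducts and TDP2 mainly at TOP2 adducts.

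Of the 10 genes, 1 rose and 2 fell with CBL0137: TOP1 rose by 0.72 on the log2 scale, whereas TOP1MT fell by 0.70 and RMI1 fell by 0.69. The other 7 were not called. A call needed a Benjamini-Hochberg adjusted p under 0.05 in edgeR's quasi-likelihood test over all genes and a fold above 1.5. That is 30% of the members, and 33.4% of all tested genes were called. By direction, 18.2% of all tested genes were called higher and 15.1% lower, so the share of members that moved is near the background. An adjusted p under 0.05 was reached by 7 members, against 61.7% of all tested genes without a fold limit. TOP2B, TOP3A, TDP1 and RMI2 passed the adjusted p but stayed under the fold limit, and TOP2A, TOP3B and TDP2 did not pass the adjusted p. The median log2 fold change was -0.15 over the members and 0.01 over all tested genes. With library size alone only TOP1 was called, when 34.6% of all tested genes were. In limma on log2(FPKM + 1), TOP1, TOP3B and TDP1 were called, with 22.1% of all genes tested there.

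Libraries held 19625517 to 21061892 reads assigned to genes, with TMM scaling factors from 0.943 to 1.06. Principal component 1 split the groups, with 85.5% of the variance. With library sizes unscaled in place of TMM factors, the median log2 change over all tested genes was 0.17. Levels are given as CPM, the reads of a gene scaled to a common TMM-adjusted library size, and are shares of the sequenced RNA. With such bulk shares, fewer cells making a transcript and less of it per cell cannot be told apart. All 6 Ewing sarcoma markers listed (CD99, FLI1, NR0B1, NKX2-2, STEAP1 and PRKCB) had reads in every library, and together stood at 1029 and 1034 CPM with DMSO and at 627 and 669 CPM with CBL0137. Of 6 markers of other cell types, 5 were matched and summed to 325 and 322 CPM with DMSO and to 604 and 595 CPM with CBL0137. The markers did not move together. Among the Ewing sarcoma markers, CD99, NR0B1 and PRKCB were called lower, at log2 changes of -0.69, -0.67 and -1.18. STEAP1 (-0.24) and NKX2-2 (0.23) passed the adjusted p under the fold limit, and FLI1 (0.02) did not pass it. The fibroblast collagen gene COL1A1 rose from 127 and 119 CPM with DMSO to 471 and 441 CPM with CBL0137, and the epithelial gene EPCAM rose from a mean of 2.85 to 7.62 CPM. LUM, another fibroblast gene, fell from a mean of 35.3 to 20.3 CPM. The blood cell gene PTPRC had 162.3 and 161.9 CPM with DMSO and 107 and 124 CPM with CBL0137, at a log2 change of -0.49 under the fold limit. The liver gene ALB had 0 reads in DMSO replicate 2 and under 0.5 CPM elsewhere. Reads in no gene also differed between the groups, at 8.53% and 8.82% of the counted reads with DMSO and 10.3% and 10.2% with CBL0137. The part of these differences in the results was not tested. The labels name no separate cultures, so the p-values measure a spread between libraries that may be technical.

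Transcripts of the 10 genes differed widely in level. On the deposited per-length scale (FPKM), TOP2A was the highest in both groups. It stood at 153 ± 9.61 with DMSO and 164 ± 2.22 with CBL0137 (SD, n = 2). TOP1 came next in both groups, at 41.7 ± 0.0100 and 72.8 ± 1.60 FPKM. With DMSO the order went on with RMI1 (31.9), TOP1MT (30.01), TOP2B (23.0), TDP2 (20.9), RMI2 (12.4), TOP3A (8.80), TDP1 (7.87) and TOP3B (6.65). Of these neighbours, RMI1 and TOP1MT overlapped between libraries, and so did TDP1 and TOP3B. With CBL0137 the genes TDP2 (21.7), RMI1 (20.9) and TOP1MT (19.9) each overlapped their neighbour and could not be ordered, and TOP2B (18.8) lay just below them. TDP1 was the lowest with CBL0137, at 4.198 FPKM. The order by counts per kilobase of exon was not the same. Exon length here is that of the merged exons of all annotated transcripts. It was 10127 bases for TOP1, 18645 for TOP2B, 3420 for RMI1 and 2977 for TDP2, so this order depends on that choice of length. TOP2A again came first, but with DMSO RMI1 (34.6 CPM per kilobase) and TDP2 (20.2) came before TOP1 (18.5), which was second with CBL0137 (30.5). TOP3B was the lowest on that scale in both groups (0.241 and 0.341), and TDP1 stood at 6.28 and 5.15. Reads that fitted overlapping genes were left out of these counts, and an antisense gene covers 90.8% of the TOP3B exon bases.

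**Figure D1:**
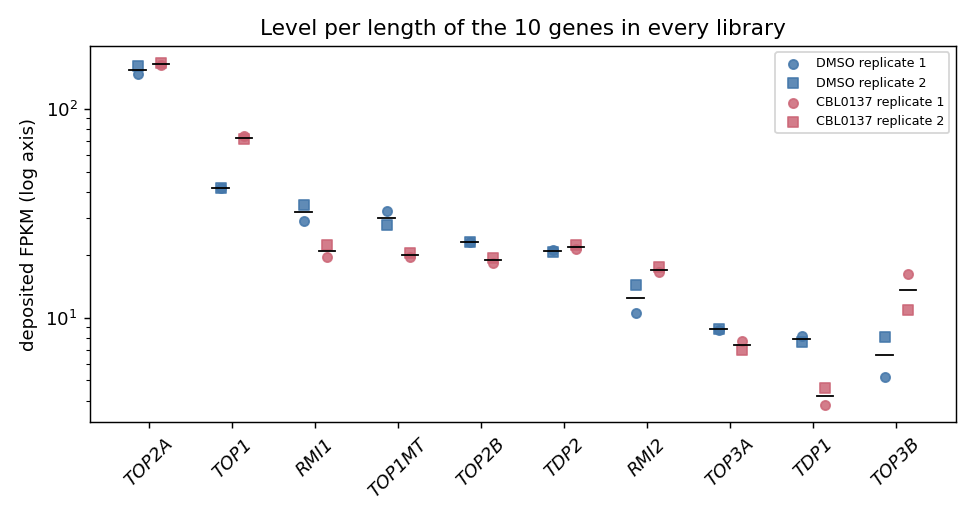
Deposited FPKM (log axis) of each gene in each library, blue for DMSO and red for CBL0137, circles for replicate 1 and squares for replicate 2, with black bars for group means. TOP2A lies above the other 9 genes in each library, and TOP1 goes from a mean of 41.7 to 72.8.

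For the genes on which the comparison turns, the 250 bases before the annotated start are shown as RefSeq gives them on GRCh38.p14, a newer build than that of the counts. Windows were matched for 8 of the 10 genes. TOP1 is the member called higher, TOP2A the most abundant, and RMI1 a member called lower, with a window for each of its starts. Capitals mark matches on either strand to CCAAT (the CCAAT box), GGGCGG (the GC box), TTTGAA (a cell cycle homology region) or TTTCCCGC (an E2F site).
TOP1 (chr20:41028572-41028821, plus strand): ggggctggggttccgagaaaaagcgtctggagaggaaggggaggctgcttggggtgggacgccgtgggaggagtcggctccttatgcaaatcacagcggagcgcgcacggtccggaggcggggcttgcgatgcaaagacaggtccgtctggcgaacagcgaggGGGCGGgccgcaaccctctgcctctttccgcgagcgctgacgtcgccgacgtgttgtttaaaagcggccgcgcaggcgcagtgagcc
TOP2A (chr17:40417897-40418146, minus strand): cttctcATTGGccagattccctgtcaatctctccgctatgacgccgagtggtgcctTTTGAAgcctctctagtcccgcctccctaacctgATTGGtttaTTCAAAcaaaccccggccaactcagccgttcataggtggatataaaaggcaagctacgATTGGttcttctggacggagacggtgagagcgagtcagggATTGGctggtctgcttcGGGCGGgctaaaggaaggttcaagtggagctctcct
RMI1, first start (chr9:83980109-83980358, plus strand): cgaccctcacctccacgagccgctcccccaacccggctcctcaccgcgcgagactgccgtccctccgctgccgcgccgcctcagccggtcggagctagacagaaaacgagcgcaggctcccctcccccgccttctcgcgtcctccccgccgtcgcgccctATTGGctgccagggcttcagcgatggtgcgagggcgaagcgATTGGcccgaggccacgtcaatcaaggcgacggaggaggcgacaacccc
RMI1, second start (chr9:83980555-83980804, plus strand): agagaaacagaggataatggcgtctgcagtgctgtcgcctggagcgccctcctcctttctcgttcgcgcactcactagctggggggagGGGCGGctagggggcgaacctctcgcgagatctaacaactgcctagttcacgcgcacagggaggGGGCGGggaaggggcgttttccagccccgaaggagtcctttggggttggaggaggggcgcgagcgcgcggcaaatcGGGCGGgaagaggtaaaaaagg

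The TOP2A window held 4 CCAAT matches, all in the reverse orientation, whose first bases lay 244, 160, 93 and 53 bases before the start. It also held 2 cell cycle homology matches and 1 GC box. CCAAT was found in 32.0% of 35116 RefSeq windows of this length, TTTGAA in 13.3%, GGGCGG in 42.6% and TTTCCCGC in 1.39%. The TOP1 window held 1 GC box and none of the other letters. RMI1 had 2 CCAAT matches before its first start and 3 GC boxes before its second. None of the 10 windows of these members held the E2F letters. These are letter matches, and no binding was measured.

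Among the type IB enzymes, TOP1, the nuclear swivel of replication and transcription (ENSG00000198900, GRCh37 chromosome 20, 39657462 to 39753127, plus strand), had 190.04 and 185 CPM in DMSO replicates 1 and 2. It had 312 and 305 CPM in CBL0137 replicates 1 and 2. Both CBL0137 libraries lay above both DMSO libraries, by far more than the replicates differed. The log2 fold change was 0.72 (SE 0.05, edgeR adjusted p = 1.5e-15), a 1.64-fold rise, and 82.3% of tested genes had a lower log2 fold change. The call held under every alternative fit except a fold limit of 2, with values from 0.68 to 0.88. An antisense gene, PLCG1-AS1, shares 2.01% of its exon bases.

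TOP1MT, its mitochondrial paralog (ENSG00000184428, chromosome 8, 144386554 to 144442149, minus strand), went the other way. It had 98.3 and 82.9 CPM with DMSO and 55.3 and 56.5 CPM with CBL0137, so the groups did not overlap and the DMSO libraries differed more from each other. The log2 fold change was -0.70 (SE 0.07, adjusted p = 9.5e-12). Without DMSO replicate 1, the higher of that pair, it was -0.58 and just short of the fold limit, and with library size alone it was -0.54. FPKM placed it at -0.56, also short of that limit. The reads of the pair can be compared inside each library, where scaling between libraries has no effect. TOP1 supplied 65.9% (95% Wilson interval 64.6 to 67.2) and 69.1% (67.8 to 70.4) of them with DMSO, and 84.95% (84.2 to 85.7) and 84.4% (83.5 to 85.1) with CBL0137. The intervals cover counting error only. How often pairs of other genes differ in this way was not tested, for this pair or for those below. The balance of the pair thus differed between the groups by more than between replicates, although an exact two-sided permutation test of 2 libraries against 2 cannot go below p = 0.333.

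TOP2A, the type II enzyme of dividing cells that condenses and separates chromosomes (ENSG00000131747, chromosome 17, 38544777 to 38574148, minus strand), had 1270.5 and 1360 CPM with DMSO and 1289 and 1322 CPM with CBL0137. The CBL0137 libraries lay between the DMSO libraries. The log2 fold change was -0.01 (SE 0.05, adjusted p = 0.88), and 99.7% of tested genes were less abundant in DMSO cells by CPM. Its sign turned with several settings: it was 0.15 with library size alone (adjusted p = 0.011) and 0.16 once trends with GC content and length were removed (adjusted p = 0.0023), never past the fold limit.

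TOP2B, the paralog that also serves non-dividing cells and acts at promoters and loop anchors (ENSG00000077097, chromosome 3, 25639469 to 25706400, minus strand), had 188 and 189.96 CPM with DMSO. With CBL0137 it had 138 and 148 CPM, below both. A log2 change of -0.40 (SE 0.05, adjusted p = 2.6e-08) passed the adjusted p but not the fold limit, and 24.8% of tested genes lay lower. Within libraries TOP2A gave 87.1% and 87.7% of the reads of the pair with DMSO, and 90.3% and 89.9% with CBL0137. The groups did not overlap on this share, although TOP2A itself was not called.

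**Figure D2:**
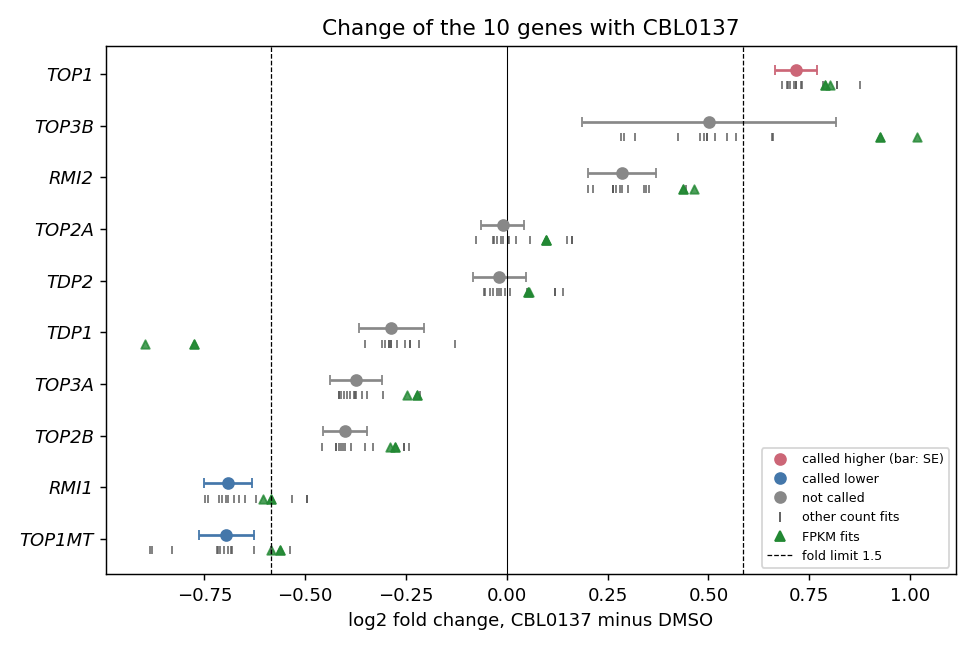
Log2 fold change (CBL0137 minus DMSO) of each gene, with the reported fit as a circle with its SE, other count-based fits as grey ticks and FPKM fits as green triangles. Dashed lines mark the 1.5-fold limit. TOP1 at 0.72 lies beyond it in every fit, whereas TOP1MT and RMI1 cross it in some and the FPKM triangles of TDP1 and TOP3B stand far from their counts.

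The type IA enzyme TOP3A works with BLM, RMI1 and RMI2 in a complex that takes apart double Holliday junctions without exchange of flanks, and it also separates linked mitochondrial genomes. TOP3A (ENSG00000177302, chromosome 17, 18174742 to 18218321, minus strand) had 76.5 and 75.0 CPM with DMSO and 59.9 and 57.04 CPM with CBL0137. Both treated libraries were lower, with a log2 change of -0.37 (SE 0.06, adjusted p = 2.9e-06) under the fold limit. With FPKM it was at -0.22 and did not pass the adjusted p (0.087).

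RMI1, the scaffold subunit that stabilises TOP3A and stimulates its decatenation (ENSG00000178966, chromosome 9, 86595713 to 86618989, plus strand), had 115 and 122 CPM with DMSO. It had 71.003 and 75.6 CPM with CBL0137, clear of the DMSO libraries. The log2 fold change was -0.69 (SE 0.06, adjusted p = 2.5e-13), a 1.61-fold fall, and 13.9% of tested genes lay lower. The value stood short of the fold limit with library size alone (-0.53), with log2(FPKM + 1) (-0.58) and with GC and length trends removed (-0.50).

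RMI2, the small subunit that binds RMI1 (ENSG00000175643, chromosome 16, 11343476 to 11475519, plus strand), had 27.5 and 30.3 CPM with DMSO and 36.9 and 33.6 CPM with CBL0137. Both treated libraries were thus above both controls. The log2 fold change was 0.29 (SE 0.09, adjusted p = 0.0036), under the fold limit, and the adjusted p rose to 0.086 without DMSO replicate 1 and to 0.089 without CBL0137 replicate 1. RMI1 supplied 80.7% and 80.1% of the reads of the RMI pair with DMSO and 65.8% and 69.2% with CBL0137. The groups were far apart on this within-library measure, and the log2 changes of RMI1 and RMI2 had opposite signs. Of the annotated genes inside RMI2, SOCS1 and the protamine genes PRM1, PRM2 and PRM3 lie on the opposite strand without sharing exon bases, and an unnamed pseudogene on that strand shares 7.20% of them.

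TOP3B, which with its partner TDRD3 acts on RNA as well as DNA (ENSG00000100038, chromosome 22, 22311397 to 22337210, minus strand), cannot be read with confidence here. It had only 29, 31, 44 and 56 counts in DMSO replicates 1 and 2 and CBL0137 replicates 1 and 2, or 1.60 ± 0.0936 and 2.27 ± 0.372 CPM (± SD, n = 2). A log2 change of 0.50 (SE 0.32, adjusted p = 0.17) was not called. An antisense gene, PPM1F-AS1, covers 90.8% of its exon bases, and the strand setting of the counting is not stated. Reads that fitted overlapping genes were set apart and counted for neither gene. How many reads of TOP3B were left out in this way was not tested. The pseudogene TOP3BP1 had 0 counts in every library. Its deposited FPKM was 0.393 and 0.295 with DMSO and 0.652 and 0.630 with CBL0137. PPM1F-AS1 had 7.24 and 8.005 CPM with DMSO and 12.1 and 12.3 CPM with CBL0137, and rose by 0.68 on the log2 scale (SE 0.14, adjusted p = 5.8e-05). On the deposited FPKM scale TOP3B was at 5.22 and 8.08 with DMSO and at 16.1 and 10.9 with CBL0137. These are far above the 0.241 and 0.341 CPM per kilobase of exon that the counts give. Limma on log2(FPKM + 1) placed the gene at 0.92 with an adjusted p of 0.035, and of 0.18 without the filter on low FPKM. Whether it is called thus depends on that filter and on which deposited measure is tested. The 2 measures differ by more than their unit: between DMSO replicates 1 and 2 the counts were 29 and 31, and the FPKM 5.22 and 8.08.

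TDP1, which frees DNA ends from trapped TOP1 (ENSG00000042088, chromosome 14, 90421283 to 90511108, plus strand), had 37.8 and 40.4 CPM with DMSO and 32.04 and 32.1 CPM with CBL0137. Both treated libraries were lower. A log2 change of -0.29 (SE 0.08, adjusted p = 0.002) stayed under the fold limit, and with library size alone it was -0.13 (adjusted p = 0.17). FPKM gave a larger difference: 8.12 and 7.63 with DMSO against 3.80 and 4.596 with CBL0137, or -0.78 on the log2(FPKM + 1) scale (adjusted p = 0.0061), past the fold limit. The cause of this gap between the counts and the deposited FPKM was not tested.

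Set against its substrate, TDP1 had fewer reads per read of TOP1 after CBL0137. TOP1 made up 83.4% and 82.1% of the reads of TOP1 and TDP1 together with DMSO, and 90.7% and 90.5% with CBL0137. The groups did not overlap on this measure, which restates the log2 changes of 0.72 for TOP1 and -0.29 for TDP1. Nor did they overlap for any other pair given here, and CPM did not overlap for 79.9% of all tested genes.

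TDP2, which frees ends from trapped TOP2 (ENSG00000111802, chromosome 6, 24650207 to 24667158, minus strand), had 61.1 and 59.2 CPM with DMSO and 58.1 and 60.6 CPM with CBL0137. The groups overlapped, and the log2 fold change was -0.02 (SE 0.07, adjusted p = 0.83), with the opposite sign under library size alone (0.14). TDP1 gave 38.2% and 40.6% of the reads of the TDP pair with DMSO and 35.5% and 34.6% with CBL0137. TOP2B gave 75.5% and 76.2% of the reads of TOP2B and TDP2 together with DMSO, and 70.4% and 71.01% with CBL0137. The TOP2B pairing thus shifted toward the repair enzyme. TOP2A, which gave most of the TOP2 reads, had nearly the same log2 change as TDP2 (-0.01 and -0.02).

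**Figure D3:**
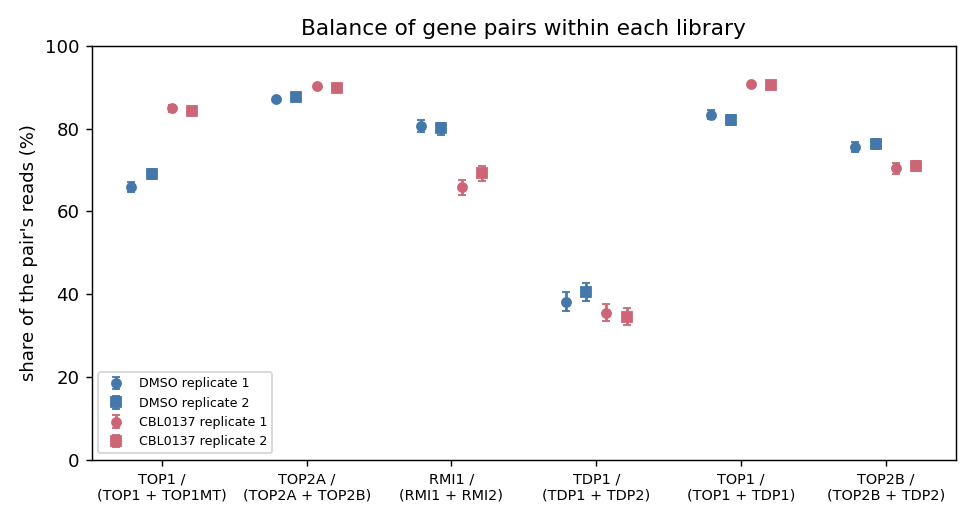
Share of a pair's reads that belong to its first gene, in percent, for each library, with 95% Wilson intervals that cover counting error only. The TOP1 share of TOP1 and TOP1MT goes from 65.9 and 69.1 with DMSO (blue) to 84.95 and 84.4 with CBL0137 (red), and the RMI1 share of RMI1 and RMI2 falls below 70.

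Together the 6 topoisomerase genes took 1825 and 1894 CPM with DMSO and 1856 and 1892 CPM with CBL0137. The sums overlapped, and TOP2A made up most of each. Over the 10 members, CPM did not overlap between the groups for 8, with TOP2A and TDP2 as the exceptions. This held for 79.9% of all tested genes, so it is no feature of the members. Exon GC content ranged from 35.8% for TOP2B to 58.8% for TOP3B. TOP1MT (57.95%) and RMI1 (36.02%), the members that fell, lie near opposite ends of that range, and TOP1 was at 42.3%. With trends along GC content and exon length removed, TOP1MT was at -0.88, RMI1 at -0.50 and TOP1 at 0.82.

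The profiles most like those of 3 members were sought by Euclidean distance of log2 CPM, centred over the 4 libraries, among 6663 genes whose average log2 CPM was 5 or more. ARAP1, GFM2 and PSAP were nearest to TOP1, at log2 fold changes of 0.70, 0.70 and 0.71. NOMO2, NPY1R and TPBG were nearest to TOP2A, and TXNL1, TAF5L and NEK2 to TOP2B. With 4 libraries, likeness mostly means a similar fold change.

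Around these enzymes stand genes that remove trapped topoisomerases, mend the breaks or share their work, in lists of 100 genes of which 98 were tested. Of these, 16 fell, 1 rose (3 with library size alone, 2 without DMSO replicate 1) and 81 were not called. This is 16.3% lower and 1.02% higher, against 15.1% and 18.2% of all tested genes. Among the 6664 tested genes at an average log2 CPM of 5 or more, 15.4% were called lower and 8.27% higher. The share that fell was thus near the background, and the median log2 fold change was -0.16.

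For proteins that modify, unfold or digest a trapped topoisomerase, 1 of 20 genes was called lower and 0 higher, against 15.1% and 18.2% of all tested genes. Another 11 passed the adjusted p under the fold limit, 5 lower and 6 higher. FAM111A, which encodes a protease active at such adducts, fell from 5.04 ± 0.698 to 2.90 ± 0.144 CPM (± SD, n = 2), or a log2 change of -0.79 (adjusted p = 0.0021). DESeq2 did not call it (adjusted p = 0.056), and it was at 0.04 with FPKM. SPRTN, the gene of the main replication-coupled adduct protease, had 21.3 and 23.7 CPM with DMSO and 32.6 and 27.8 CPM with CBL0137, at a log2 change of 0.43 (SE 0.09, adjusted p = 0.00016) under the fold limit. ZNF451, whose product is a SUMO ligase that helps TDP2, was at -0.08 (adjusted p = 0.26). DDB1, a ubiquitin ligase adaptor gene, was at 0.25.

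Among the genes that seal the nick after TDP1, 1 of 8 fell and 0 rose. It was POLB, the gene of a gap-filling polymerase, from 57.2 ± 2.81 to 37.5 ± 2.90 CPM (± SD, n = 2), or -0.61 on the log2 scale. The fold sat at the limit, and the call was lost with library size alone (-0.45), without DMSO replicate 1 (-0.58) and without CBL0137 replicate 1 (-0.53), among other settings. PARP1, the break sensor that brings in XRCC1, was at 0.09 (adjusted p = 0.16), and XRCC1, the scaffold of this repair, at -0.10 (adjusted p = 0.23).

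The nucleases that can cut an adduct off with a piece of DNA had 2 of 11 lower and 0 higher, with a median of -0.33. RBBP8, which encodes CtIP, fell from 161 ± 2.46 to 57.6 ± 0.454 CPM (± SD, n = 2), which is -1.49 on the log2 scale. NBN, of the MRE11 complex, fell from 166 ± 1.55 to 72.9 ± 5.82 CPM, or by 1.19. APEX1, an abasic site nuclease gene, was at -0.34 under the fold limit.

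In end joining, which rejoins the ends that TDP2 has cleaned, 3 of 8 tested genes fell and 1 rose. This is 37.5% lower and 12.5% higher, against 15.1% and 18.2% of all tested genes, in a list of only 8. PAXX, which encodes a Ku partner, fell by 1.23 (SE 0.08), XRCC5, the gene of a Ku subunit, by 0.78 and PRKDC, the gene of the DNA-dependent kinase, by 0.74. LIG4, the ligase gene of this pathway, rose from 40.2 ± 2.33 to 68.2 ± 4.83 CPM (± SD, n = 2), which is 0.76 on the log2 scale. XRCC6, the gene of the other Ku subunit, was at -0.40 under the fold limit. XRCC5 and PRKDC were named after their values were seen, as were STAG2 and PLK1 below. Alternative fits are not given for these genes. Their mean FPKM with DMSO and with CBL0137 was 137 and 92.4 for XRCC5 and 139 and 87.1 for PRKDC. It was 5.53 and 4.19 for STAG2 and 60.5 and 35.3 for PLK1.

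Of the RecQ helicases and other partners of the TOP3A complex, 1 of 10 fell and 0 rose, with a median of 0.17. BLM, the helicase gene of the complex, had 85.5 and 91.4 CPM with DMSO and 99.1 and 92.1 CPM with CBL0137, at a log2 change of 0.11 (SE 0.06, adjusted p = 0.11). RMI1 fell while BLM did not pass the test, but the difference between these 2 genes was not tested. WRN, another RecQ helicase gene, fell from 144 ± 5.11 to 88.9 ± 0.712 CPM, or by 0.69. Its call was lost at -0.53 with library size alone, at -0.53 with log2(FPKM + 1) and at -0.54 with GC and length trends removed. TOPBP1, a checkpoint scaffold gene, was at 0.08.

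Of 4 partners of TOP3B, TDRD3 fell from 59.1 and 63.2 CPM to 34.2 and 37.4 CPM, at a log2 change of -0.77 (SE 0.07, adjusted p = 3.8e-12), against -0.43 and an adjusted p of 0.11 with FPKM. FXR1, an RNA-binding protein gene, was at 0.22. Of the chromosome structure genes whose products act with the TOP2 enzymes, 3 of 13 fell and 0 rose (median -0.28): the condensin gene NCAPG (-0.77) and the cohesin genes STAG2 (-0.71) and RAD21 (-0.62). RAD21 lost its call with library size alone (-0.46), upper-quartile scaling (-0.55) and GC and length trends removed (-0.48), and NCAPG lost it with those trends removed (-0.57). The condensin gene SMC4 was at 0.08.

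Of 9 genes of mitochondrial DNA upkeep, which share their compartment with TOP1MT, PRIMPOL, a primase gene also active in the nucleus, fell from 51.5 ± 1.94 to 24.3 ± 1.15 CPM (± SD, n = 2). Its log2 fold change was -1.08. The other 8 were not called, among them SSBP1, a single-strand binding protein gene, at -0.41. In the G2 and mitosis list, with which TOP2A is usually made, 3 of 14 fell and 0 rose: CCNA2 (-0.93), PLK1 (-0.78) and AURKB (-0.78). AURKB fell short of the fold limit with log2(FPKM + 1), at -0.56. MKI67 (0.13) and CENPF (0.17) passed the adjusted p at small differences, and TOP2A was at -0.01. Of the meiotic topoisomerase-like pair, SPO11 did not pass the filter on low counts, and TOP6BL, found under its older symbol C11orf80, had 22.1 and 17.1 CPM with DMSO and 27.2 and 26.2 CPM with CBL0137. Its log2 fold change was 0.44 (SE 0.10, adjusted p = 0.00023), under the fold limit.

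**Figure D4:**
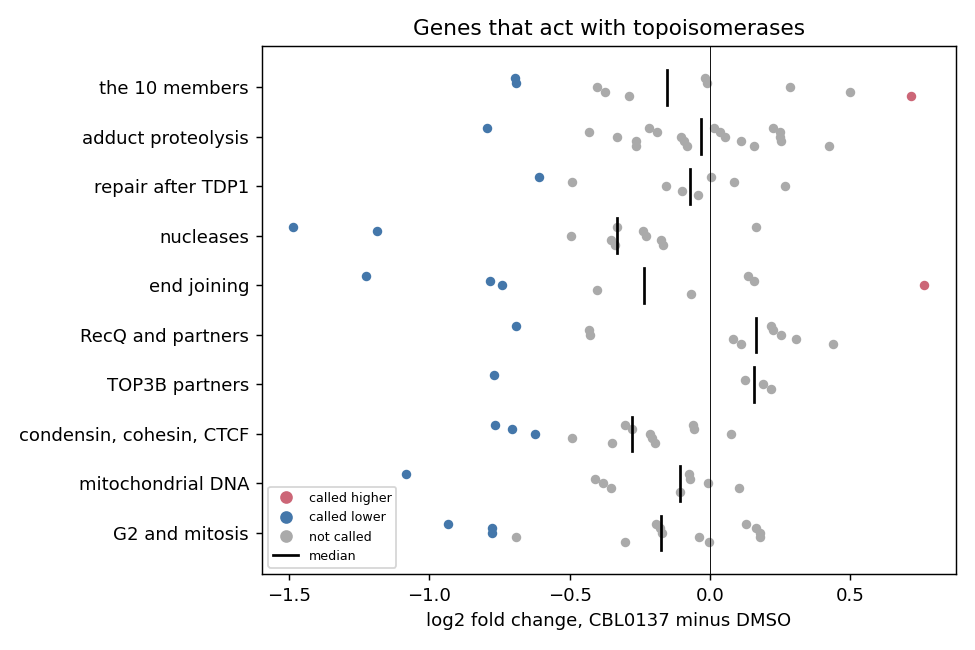
Log2 fold change (CBL0137 minus DMSO) of the members and of the tested genes in each list except the meiotic pair, which is not drawn. Red is for called higher, blue for called lower and grey for not called, with black bars for medians. Vertical spread within a list has no meaning. TOP1 among the members and LIG4 in end joining are the only genes drawn as higher.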

How the data were processed

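RNA-seq of 4 libraries was used, 2 per group, with group and replicate number read from the sample titles. Per the series' design text in the labels, the authors trimmed reads with Trim Galore, aligned them to hg19 with HISAT2 and deposited raw read counts per gene from HTSeq 0.11.1. The deposited FPKM values were computed by the authors from read number, gene length and depth. They disagree with the deposited counts for more genes than TOP3B and TDP1. With DMSO, NUSAP1 of the G2 and mitosis list averaged 0.774 CPM but 72.0 FPKM, and STAG2 averaged 533 CPM but 5.53 FPKM. The cause was not tested. DESeq2 1.26.0 gave the authors' own calls. The submitters' processing notes also name mm10. No source used here gives the annotation release or the strand setting. Entries that name no gene stayed out, 6 in all: reads in no gene made up 8.53% and 8.82% of the counted reads with DMSO and 10.3% and 10.2% with CBL0137, reads in overlapping genes 9.34% and 9.27% against 8.75% and 8.78%, and multiply aligned reads 6.91% to 7.14%.

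Counts were fitted with edgeR 4.0.16 in R 4.3.3 (TMM, filterByExpr, quasi-likelihood F test, group only), over all 17374 genes kept. SE is the size of the log2 change over √F. FPKM was tested with limma 3.58.1 on log2(FPKM + 1), for genes with FPKM of at least 0.5 in 2 libraries; the added 1 understates changes of low genes. Positions and exons came from GENCODE release 44 on GRCh37, the same build as hg19. The fit was run on simulated counts with 200 changed genes, whose true and fitted log2 fold changes had a correlation of 0.985. The simulated spread was that fitted to these same libraries, and 5798 genes were called in the data. The simulation thus cannot speak for the scaling or the error rates here. Members and lists were chosen with earlier results of these data known. All members were named, and of each list the called genes with the lowest and highest log2 fold change, the uncalled gene with the highest CPM and 7 fixed genes. PECAM1 was not analysed here. Replicates differed by more than sampling noise (chi-square per degree of freedom 2.95 for DMSO and 2.68 for CBL0137). The biological coefficient of variation in edgeR, a common value over all genes that leaves out counting noise, was 4.11%. Alternatives covered scaling, filters, thresholds, FPKM in place of counts, DESeq2 1.42.0, GC and length offsets, a replicate block and each library left out.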

Additional observations from a re-analysis of the deposited data

How the results depend on the processing

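Upper-quartile and RLE scaling, DESeq2, no filter or a stricter filter on low counts, and leaving out any library but DMSO replicate 1 called the same 3 members. Of all tested genes, upper-quartile scaling called 33.5%, RLE 33.4%, DESeq2 21.2%, no filter 15% and the stricter filter 35.1%. With library size alone 1 member was called, TOP1 (0 lower), against 23.8% of all tested genes higher and 10.8% lower. The GC and length offsets, with or without the replicate block, called 1 higher and 1 lower member. Without the block they called 17% of all tested genes higher and 15.2% lower. With log2(FPKM + 1) 2 members were higher and 1 lower, against 12.7% and 9.39% of the genes tested there. With log2(FPKM + 0.1) 2 were higher and 2 lower, against 16.4% and 11.3%. With no FPKM filter 1 was higher and 1 lower, against 3.14% and 2.74%. With no fold limit 7 members were called (2 higher, 5 lower), against 61.7% of all tested genes (30.8% higher, 30.9% lower). With a fold above 2 there were 0 (0 higher, 0 lower), against 18.5% (11.4% higher, 7.01% lower). Of the members, 7 had an unadjusted p under 0.05 in edgeR's test. Leaving out a library gave 2 to 3 members (1 higher; 1 lower without DMSO replicate 1, 2 otherwise) and 16 to 17 list genes (1 to 2 higher, 2 being without DMSO replicate 1, and 15 to 16 lower).

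Of the list genes, 10 were called with log2(FPKM + 1), filtered or not (9 lower), against 22.1% and 5.88% of the genes tested there. With no fold limit 67 were called (21 higher, 46 lower, against 30.8% and 30.9% of all tested genes). A fold above 2 left 4 (0 higher, 4 lower, against 11.4% and 7.01%). Library size alone called 3 higher, against 23.8%. Replicate numbers mark no shared culture in the labels, and deviations of same-numbered libraries had a correlation of 0.02 over 17374 genes. With the replicate number as a block 3 members and 17 list genes were called, as without it.

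Alternatives for single genes were run for the members and the list genes named by rule. Among these, signs turned for 5 genes. TOP2A was at 0.148 with library size alone, 0.0577 under upper-quartile scaling, 0.0035 with the stricter filter, 0.097, 0.0976 and 0.097 in the FPKM fits, -0.0759 to 0.0237 when a library was left out (0.0058 without CBL0137 replicate 1) and 0.162 with GC and length offsets (0.163 with the block). TDP2 was at 0.14 when libraries were unscaled, 0.0495 under upper-quartile scaling, 0.0538, 0.0561 and 0.0538 with FPKM, -0.0561 to 0.0091 when a library was left out, and 0.12 with the offsets, block or not. FAM111A was at 0.0394, 0.0767 and 0.0394 with FPKM. ZNF451 was at 0.0792 when libraries were unscaled, 0.0304, 0.0323 and 0.0304 with FPKM and 0.0643 with the offsets (0.0638 with the block). XRCC1 was at 0.061 with library size alone. The causes were not tested.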
